A study of Saccharomyces cerevisiae with 14 samples.

Results

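The GABA use genes of budding yeast are UGA1, UGA2, UGA3 and UGA4, and they were chosen here by name. All 4 were measured, each by 1 probe set, among 5449 Saccharomyces cerevisiae genes on the arrays. The series followed wild-type YSBN6 cells, grown in a batch fermentor on 20 g/L glucose with 200 mg/L proline as the nitrogen source, through a pulse of glutamine to 400 mg/L. Every array carries this 1 strain and genotype, and the reference is the culture on proline before the pulse, here called -10 min. The 14 arrays come from experiments BY003, BY008 and BY012. Each experiment contributed an array before the pulse and at 7 and 24 min, as biological triplicates, and BY008 alone was also followed at 3, 10 and 14 min and later at 56 and 120 min.

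GABA (gamma-aminobutyrate) is a nitrogen source that yeast uses when better ones are scarce. It enters the cell through the permease Uga4, as well as through the proline permease Put4 and the general amino acid permease Gap1. The transaminase Uga1 passes its amino group to 2-oxoglutarate, which gives glutamate and succinate semialdehyde, and the dehydrogenase Uga2 oxidises the semialdehyde to succinate. Together with the glutamate decarboxylase Gad1 these enzymes form the GABA shunt, a side route around part of the TCA cycle. Uga3 is a zinc cluster activator that acts with Dal81 on UGA genes when GABA is present. GATA factors, which include activators and repressors, also control such genes, and these are less expressed on a preferred nitrogen source.

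Values below are log2 of the deposited intensity of a probe set. A value shows how 1 gene differed between arrays, and levels of different genes are not compared. Median array intensity ranged from 159.2 to 278.7, and precision is limited by how few arrays there are. The median gene changed by -0.33 on the log2 scale at both 7 and 24 min, and by -0.14 and -0.05 once array medians were subtracted. A gene counts as risen or fallen where its adjusted p was under 0.05 in limma, and ± marks a standard error (SE) of a change from that fit, with 3 arrays per time. In RNA from a whole culture, fewer cells with a transcript and less of it per cell cannot be told apart.

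UGA1, UGA2 and UGA4 fell between 11.4-fold and 17.1-fold by 24 min, while UGA3 rose 1.55-fold. Over all genes, 44.9% were called lower and 24.1% higher in this comparison (2444 and 1312 genes, or 1938 and 1738 with array medians subtracted), so the calls alone do not set these 4 genes apart. Their median change was -3.72 on the log2 scale, against -0.33 for all genes. At 7 min only UGA2 passed the test, as a fall (35.7% of all genes were called lower and 16.7% higher, 1947 and 910 genes, or 1320 and 1158 with array medians subtracted). Between 7 and 24 min UGA1, UGA2 and UGA4 fell and UGA3 rose, where 20.2% of all genes fell and 13.2% rose (1099 and 718 genes, or 991 and 940 with array medians subtracted). Each of the 4 was called in the F test over the 3 replicated times, as were 73.4% of all genes, but 3 of the 4 were called without BY003 and 3 without BY012.

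**Figure D1:**
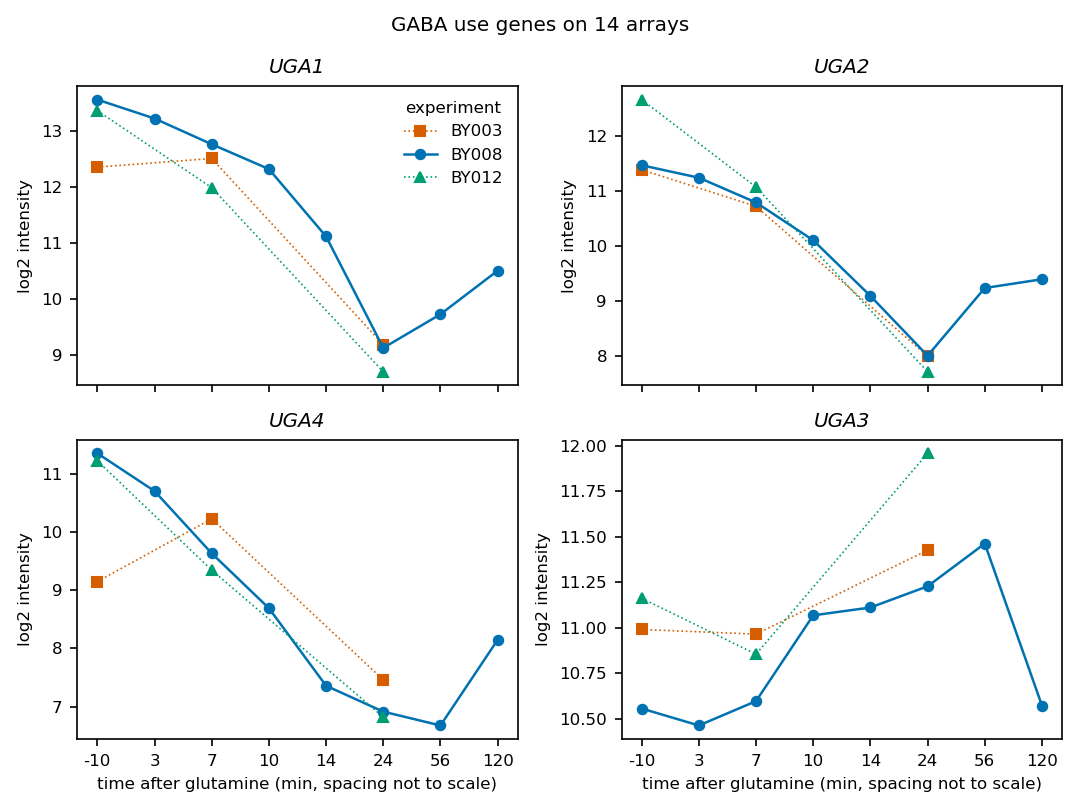
Log2 intensity of UGA1, UGA2, UGA4 and UGA3 (vertical axes, each with its own range) on the 14 arrays by time after glutamine (horizontal axis, minutes, evenly spaced), with 1 symbol per experiment and lines joining arrays of 1 experiment. At 24 min all arrays of UGA1, UGA2 and UGA4 lie below all their -10 min arrays, whereas UGA4 in BY003 starts at 9.15 and is higher at 7 min.

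UGA1, for the GABA transaminase, stood at 12.36 in BY003, 13.57 in BY008 and 13.37 in BY012 at -10 min. At 7 min its values in the same order of experiments were 12.51, 12.77 and 11.99, and at 24 min they were 9.18, 9.12 and 8.70. The 24 min arrays lay below all others of these times, and the 7 min arrays overlapped those at -10 min. The change at 24 min was -4.10 ± 0.32 (adjusted p = 6.78e-06), a 17.1-fold fall. At 7 min it was -0.67 ± 0.32 (adjusted p = 0.106, 95% interval from -1.40 to 0.06), with a value of 0.15 in BY003, -0.80 in BY008 and -1.38 in BY012. Most of the fall came later: from 7 to 24 min UGA1 fell by 3.42 ± 0.32 (adjusted p = 0.000104), with -3.33, -3.64 and -3.29 in BY003, BY008 and BY012.

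UGA2, for succinate semialdehyde dehydrogenase, stood at 11.39 in BY003, 11.47 in BY008 and 12.66 in BY012 at -10 min. Its values were 10.73, 10.80 and 11.08 at 7 min and 8.004, 8.01 and 7.72 at 24 min. The 3 times did not overlap, and the spread was widest at -10 min, where BY012 lay 2.29-fold above the higher of the other arrays. UGA2 fell at 7 min (-0.98 ± 0.31, adjusted p = 0.0244) and further from 7 to 24 min (-2.95 ± 0.31, adjusted p = 0.000164). The fall from -10 to 24 min was 15.2-fold (-3.93 ± 0.31, adjusted p = 6.52e-06). Within experiments the change was -3.39 in BY003, -3.46 in BY008 and -4.94 in BY012. The call at 7 min was lost without BY003 (adjusted p = 0.0844) or without BY008 (adjusted p = 0.0674), and the change lay between -1.13 and -0.67 when each experiment was left out in turn.

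UGA4, for the GABA permease, stood at 9.15 in BY003, 11.36 in BY008 and 11.23 in BY012 at -10 min. Its values were 10.23, 9.64 and 9.35 at 7 min and 7.46, 6.91 and 6.82 at 24 min. The 7 min arrays overlapped those at -10 min, where BY003 was lowest, and the 24 min arrays lay below all others of these times. By 24 min UGA4 fell 11.4-fold (-3.52 ± 0.53, adjusted p = 0.000282). The 3 experiments gave 3.23-fold in BY003, 21.8-fold in BY008 and 21.3-fold in BY012. At 7 min the change was -0.84 ± 0.53 (adjusted p = 0.200, 95% interval from -2.03 to 0.35), made up of 1.08 in BY003, -1.72 in BY008 and -1.88 in BY012. Without BY003 the change at 7 min was -1.80 and passed the test (adjusted p = 0.00363). From 7 to 24 min UGA4 fell by 2.68 ± 0.53 (adjusted p = 0.00484), and here the experiments gave -2.77, -2.72 and -2.53.

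The low end of the UGA4 range came near the level of probe sets taken to be for another organism. On the same arrays 1746 probe sets list a gene that had no match among the S. cerevisiae genes. They are taken here as those of the other yeast on the chip. Their 95th percentile on log2 was 6.52, 6.50 and 6.29 at 24 min in BY003, BY008 and BY012. UGA4 lay above it by less than 1 log2 unit on each. UGA1 and UGA2 lay above this level on every array.

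UGA3, for the activator, moved the other way and by less. It stood at 10.99 in BY003, 10.56 in BY008 and 11.16 in BY012 at -10 min, at 10.97, 10.60 and 10.86 at 7 min, and at 11.43, 11.23 and 11.96 at 24 min. The 24 min arrays lay above all arrays of the other replicated times, though by little. UGA3 rose by 0.63 ± 0.23 on the log2 scale from -10 to 24 min (adjusted p = 0.0313), with 0.44, 0.67 and 0.80 in BY003, BY008 and BY012. Its rise from 7 to 24 min was 0.73 ± 0.23 (adjusted p = 0.0351). At 7 min it was at -0.10 ± 0.23 against -10 min (adjusted p = 0.732), or 0.10 once array medians were subtracted. The call at 24 min was lost when BY003 (0.73, adjusted p = 0.116) or BY012 (0.55, adjusted p = 0.0634) was left out, and the rise from 7 to 24 min was lost without any 1 of the 3 experiments. Subtracting array medians or quantile normalization kept both calls, and BY012 had the largest of the 3 differences in each comparison.

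BY008 was followed in most detail, with 1 array per time, so the following values have no replicates and no test. UGA4 was at 11.36 before the pulse, at 10.71, 9.64, 8.69 and 7.36 at 3, 7, 10 and 14 min, and at 6.91, 6.67 and 8.15 at the last 3 times (24, 56 and 120 min). UGA1 over the same times was at 13.57, 13.23, 12.77, 12.32, 11.12, 9.12, 9.73 and 10.51. UGA2 was at 11.47, 11.25, 10.80, 10.11, 9.10, 8.01, 9.24 and 9.40. All 3 decreased at each step up to 24 min. UGA4 was ahead in BY008: by 10 min it had covered 60.0% of its log2 fall to 24 min, against 39.4% for UGA2 and 28.0% for UGA1, and by 14 min 90.0% against 68.6% and 55.1%. These shares depend on the 24 min value, which for UGA4 lay near the 95th percentile of the other yeast's probe sets (6.91 against 6.50). The step from 10 to 14 min was -1.21 for UGA1 and -1.33 for UGA4. The step from 14 to 24 min, which spans a longer time, was -1.99 for UGA1 and -0.45 for UGA4. In BY003 the changes at 7 min had another order, with UGA4 at 1.08, UGA1 at 0.15 and UGA2 at -0.66.

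After 24 min the 3 genes parted. UGA2 was 1.23 log2 units higher at 56 min than at 24 min and UGA1 was 0.60 higher, whereas UGA4 was 0.24 lower. UGA4 was then near the 95th percentile of the other yeast's probe sets. It was at 6.91 against 6.50 at 24 min and at 6.67 against 6.29 at 56 min. At 120 min all 3 stood 1.24 to 1.39 above their 24 min value in BY008. None was back at its level on proline: at 120 min the intensity was 12.0% of that at -10 min for UGA1, 23.8% for UGA2 and 10.8% for UGA4. UGA3 ran the other course, with 10.56, 10.46, 10.60, 11.07, 11.11, 11.23, 11.46 and 10.57 over the 8 times. It was highest at 56 min, at 187% of its -10 min intensity, and was at 101% at 120 min.

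**Figure D2:**
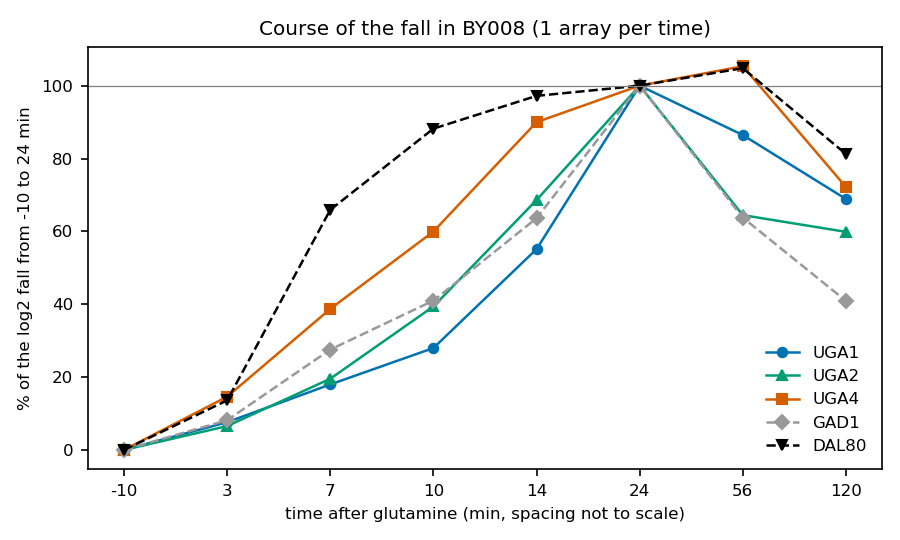
Share of the log2 fall from -10 to 24 min reached at each time in BY008 (vertical axis, percent; horizontal axis, minutes after glutamine, evenly spaced; 1 array per time). UGA4 reaches 60.0% by 10 min, when UGA1 is at 28.0%, and DAL80 is at 65.9% by 7 min. The 24 min value of UGA4 lies near the 95th percentile of the other yeast's probe sets (6.91 against 6.50 on log2).

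Around the 4 genes stand those that supply GABA, take it up or control the UGA genes, in a list of 9. At 7 min 1 of these rose and 6 fell, at 24 min 2 rose and 5 fell, and their median changes were -1.29 and -1.67. Of all genes 16.7% rose and 35.7% fell at 7 min, and 24.1% rose and 44.9% fell at 24 min, so the counts at 24 min are near the background. GAD1, for glutamate decarboxylase, which makes GABA, stood at 12.35 in BY003, 11.25 in BY008 and 13.59 in BY012 at -10 min, and at 8.70, 8.17 and 9.13 at 24 min. It fell 13.2-fold by 24 min (-3.73 ± 0.59, adjusted p = 0.000397). The fall of GAD1 was 12.5-fold in BY003, 8.45-fold in BY008 and 21.9-fold in BY012, and the fitted change was -3.13 without the -10 min array of BY012 (adjusted p = 0.00137). At 7 min GAD1 was at -1.29 ± 0.59 (adjusted p = 0.0915), and at adjusted p = 0.00331 with experiment as a replicate block.

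The other permease genes for GABA started near the top of the scale, where the brightest probe set of all arrays reached 15.14. PUT4, the proline permease gene, was between 13.91 and 14.26 at -10 min and fell 11.5-fold by 24 min (-3.52 ± 0.30, adjusted p = 9.26e-06). GAP1, for the general amino acid permease, was between 14.41 and 14.55 and fell 4.81-fold (-2.27 ± 0.23, adjusted p = 2.77e-05). Unlike UGA4, both were already called lower at 7 min, with -1.77 ± 0.30 for PUT4 and -1.38 ± 0.23 for GAP1. Whether these changes differ from that of UGA4 at 7 min was not tested. In BY008 GAP1 came back furthest, to 64.1% of its -10 min intensity at 120 min, against 10.8% for UGA4 and 8.56% for PUT4.

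Among the regulators, genes of the GATA group moved in different directions. DAL80, for a GATA repressor that is itself induced on poor nitrogen, had the largest fitted falls of the group. It fell by 2.74 ± 0.21 at 7 min (adjusted p = 2.10e-05) and by 3.44 ± 0.21 at 24 min. GZF3, for the related repressor, fell by 2.46 ± 0.32 at 7 min (adjusted p = 0.000277) and was at -0.43 ± 0.32 at 24 min (adjusted p = 0.255), so that it rose from 7 to 24 min (2.03 ± 0.32, adjusted p = 0.00157, but 0.0610 without BY003). At 7 min GZF3 had fallen further than DAL80 in BY008 (-3.04 against -2.61), but less far in BY003 and BY012. GAT1, for an activator, fell at 7 min (-0.95 ± 0.21, adjusted p = 0.00522) and was lower at 24 min too (-1.67 ± 0.21, adjusted p = 9.88e-05). Its call at 7 min was lost without BY003 or without BY008. GLN3, for the other activator, was at 0.14 ± 0.19 at 7 min (adjusted p = 0.556) and rose at 24 min (1.11 ± 0.19, adjusted p = 0.000582). URE2, whose product keeps Gln3 in the cytoplasm, was called higher at 7 min (0.63 ± 0.15, adjusted p = 0.00727) and at 24 min (0.73 ± 0.15, adjusted p = 0.00207).

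DAL81, for the partner of Uga3, had yet another course. It stood at 10.63, 11.05 and 11.04 in BY003, BY008 and BY012 at -10 min, at 10.42, 10.17 and 10.46 at 7 min, and at 10.87, 10.93 and 10.996 at 24 min. It was lower at 7 min (-0.55 ± 0.16, adjusted p = 0.0162), a call that ended once array medians were subtracted (-0.35, adjusted p = 0.0883) and without any 1 of the 3 experiments (adjusted p from 0.0553 to 0.145). At 24 min it was at 0.03 ± 0.16 (adjusted p = 0.879). That value was 0.31 with array medians subtracted (adjusted p = 0.101) and 0.34 with quantile normalization (adjusted p = 0.0834). Of the activator pair, UGA3 was thus called higher at 24 min. The 95% interval of the DAL81 change, without further scaling, ran from -0.32 to 0.38. Whether the changes of UGA3 and DAL81 differ was not tested.

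**Figure D3:**
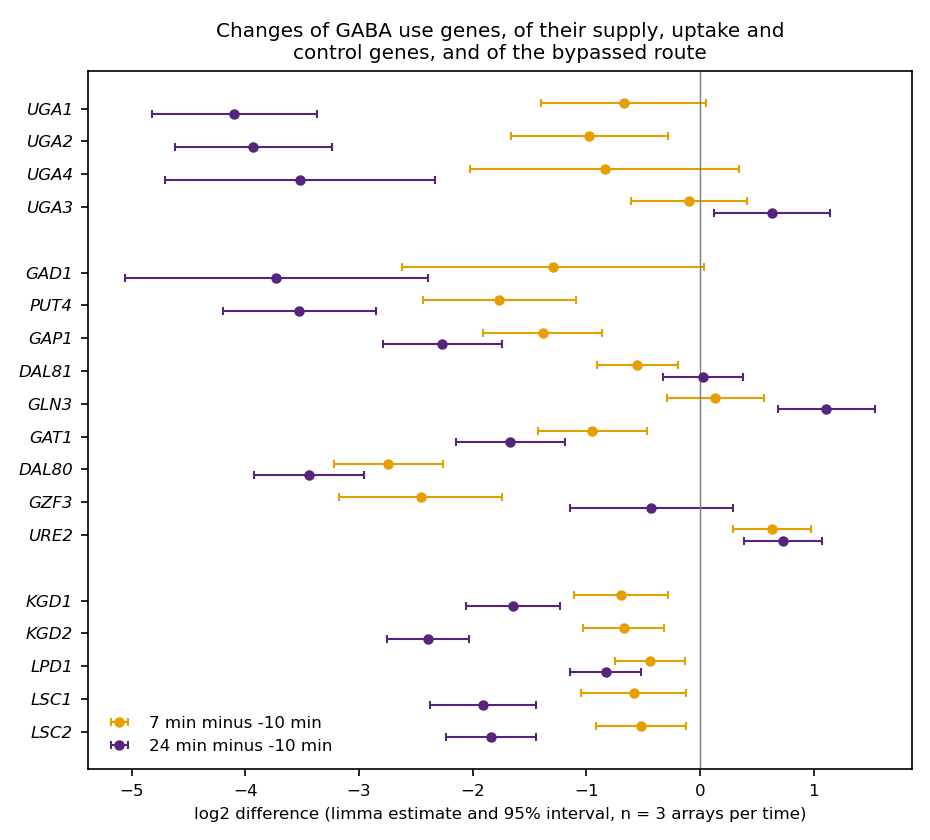
Log2 difference from -10 min at 7 and at 24 min (horizontal axis) for the 4 UGA genes (top), 9 genes of GABA supply, uptake and control (middle) and 5 genes of the bypassed TCA route (bottom), as limma estimates with 95% intervals from 3 arrays per time. At 24 min UGA1, UGA2 and UGA4 lie between -4.10 and -3.52, and the bypassed route between -2.39 and -0.83.

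The shunt runs beside the TCA cycle steps from 2-oxoglutarate to succinate, which use the 2-oxoglutarate dehydrogenase subunits Kgd1, Kgd2 and Lpd1 and the succinyl-CoA ligase subunits Lsc1 and Lsc2. All 5 of these genes fell at 24 min, with a median of -1.84. Of all genes 44.9% were called lower at 24 min, and the median gene changed by -0.33. The largest fall was that of KGD2 (-2.39 ± 0.16, adjusted p = 3.24e-06) and the smallest that of LPD1 (-0.83 ± 0.14, adjusted p = 0.000507), whose product serves other dehydrogenases too. At 7 min all 5 were called lower (median -0.58), where 35.7% of all genes were called lower. Of the 5, 2 were called lower once array medians were subtracted, 0 without BY003, and 2 without BY008 or without BY012. A constant log2 offset of an array cancels when changes are compared within that array, but an offset that varies with intensity does not. Within BY003, BY008 and BY012 the mean log2 change of UGA1 and UGA2 at 24 min minus that of the 5 bypassed genes was -1.76, -2.19 and -2.91. At 7 min the same difference was 0.14, -0.25 and -0.61.

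The starting level of UGA4 differed between experiments. In BY003 at -10 min UGA4 lay 4.22-fold below the lower of the other -10 min arrays, the largest such gap among the 5449 genes and the only one of at least 4-fold. UGA1 lay 2.01-fold below and ranked 10 in this order, in which 11 genes lay at least 1 log2 unit below. The same count was larger for the other -10 min arrays, with 67 genes in BY008 and 87 in BY012. In the BY003 order the genes between UGA4 and UGA1 were HSP30, CAR1, YDL218W, YSP3, CHA1, DSD1, ODC1 and URH1. CAR1 and CHA1 encode arginase and the serine and threonine deaminase, and DSD1 a D-serine dehydratase. Whether the genes low in this array share a function was not tested. UGA2 was not low in BY003 at -10 min (rank 1274, 1.06-fold below), nor was UGA3, which lay between the values of the other arrays. UGX2, PUT4 and DAL80 at 11.88, 13.91 and 13.95 in BY003 lay within 0.27 log2 units of the lower of the other arrays. By 7 min UGA4 in BY003 was the highest of the 3 arrays. The ranking was made after the values had been seen, and what set this array apart for UGA4 was not tested.

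**Figure D4:**
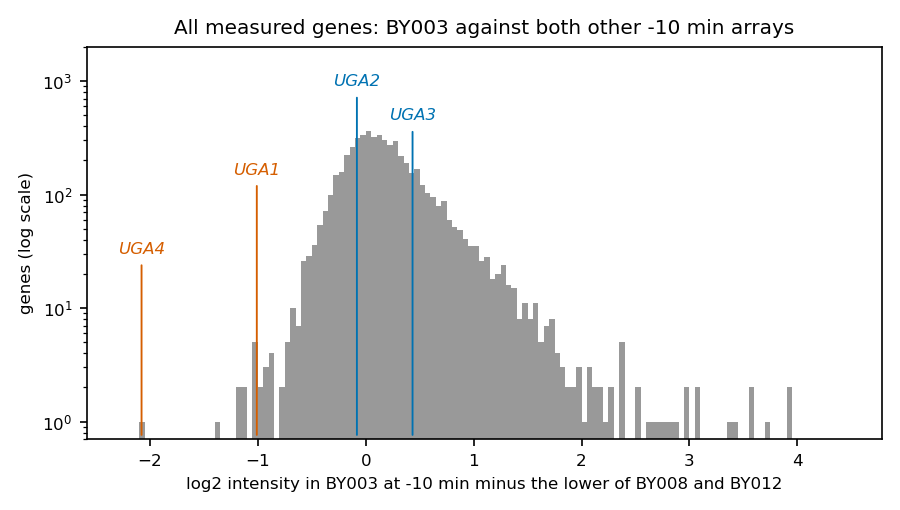
Number of genes (vertical axis, log scale) by the log2 intensity in BY003 at -10 min minus the lower of BY008 and BY012 at that time (horizontal axis), for 5449 genes, with the UGA genes marked. UGA4 is alone at the low end (-2.08), UGA1 is at -1.01, and UGA2 and UGA3 lie in the bulk.

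For UGA1, UGA2 and UGA4, but not for UGA3, the experiments were closer together at 24 min than at -10 min. UGA4 had a standard deviation (SD) over 3 arrays of 1.24 at -10 min, 0.45 at 7 min and 0.35 at 24 min. For UGA1 these were 0.65, 0.40 and 0.26, and for UGA2 0.71, 0.19 and 0.17. UGA3 had 0.31, 0.19 and 0.38. At 24 min UGA4 was near the level of the other yeast's probe sets, and these SDs were not compared with those of all genes. The -10 min array of BY012, which was the highest for UGA2 and GAD1, also stood apart in general, where 32 genes exceeded both other starting values by 4-fold or more and 11 fell short of them by as much. Without it UGA2 was at -0.56 at 7 min (adjusted p = 0.0200) and at -3.52 at 24 min (adjusted p = 5.03e-06), and both calls held.

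Likeness of patterns was measured as the root mean square difference of log2 values over the 14 arrays, after each gene was centred on its own mean. The genes most like UGA1 were YOR289W (0.34), YSP3 (0.37) and HXK1 (0.40), of which HXK1 encodes a hexokinase and YOR289W has no standard name. Those most like UGA4 were YSP3 (0.41), ECM38 (0.48) and ATG2 (0.53), where ATG2 acts in autophagy and ECM38 encodes a gamma-glutamyltranspeptidase. YSP3 was also low in BY003 at -10 min, with rank 5 in the order above. That array is among the 14 in the likeness measure, so this is not a separate observation. UGA2 was closest to PLN1 (0.22), GIS1 (0.23) and EMP46 (0.23), and 67 genes lay within 0.5 of it, against 9 for UGA1 and 2 for UGA4. Among the members themselves UGA1 and UGA2 differed by 0.57, UGA1 and UGA4 by 0.61, and UGA2 and UGA4 by 0.67. UGA3 was closest to CFD1 (0.16), YNG2 (0.17) and YNG1 (0.18), but 1722 genes lay within 0.5 of it, since a gene that moves little is near many others.

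The 4 genes lie apart in the genome, and their nearest protein-coding neighbours were looked up after the values had been seen. Of 8 neighbours 7 were measured, and at 24 min 3 of them fell and 2 rose, shares near the 44.9% and 24.1% of all genes. UGA3 lies between GLT1, for glutamate synthase, and UGX2, a gene of unknown function. UGX2 was at 11.88, 12.15 and 12.97 in BY003, BY008 and BY012 at -10 min and at 8.20, 6.94 and 8.47 at 24 min, a change of -4.46 (adjusted p = 1.17e-05). GLT1 changed by -1.13 (adjusted p = 0.000609). Beside UGA1 the gene VMA7 was at -0.23 (adjusted p = 0.307), beside UGA2 the gene RCR1 rose (1.55, adjusted p = 0.000126) and DSF2 was at 0.12 (adjusted p = 0.576), and beside UGA4 the gene CWC2 rose (1.08, adjusted p = 0.000400) and YDL211C fell (-1.45, adjusted p = 0.00352).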

How the data were processed

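RNA was hybridised to 14 Affymetrix yeast arrays. Each deposited value is the intensity of a probe set on a linear scale. Per the submitters' processing notes the tools were R 2.10.0, affy and RMA, with order and settings not given in the sources used here. Log2 was taken of the deposited intensity, with no further scaling. Of 10928 probe sets, 5498 carry a listed S. cerevisiae gene, 3683 carry none, and 1 lists several genes. The other 1746 list a gene with no match in the RefSeq table and were taken as the other yeast. The brightest probe set was kept for 47 genes with several, which left 5449 genes. Gene names follow RefSeq, whose table gave the neighbours. Sequences were not used here.

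All genes were fitted together, with a mean for each time, in limma 3.58.1 in R 4.3.3 (6 residual and 3.31 prior degrees of freedom). Adjusted p values are from limma, by Benjamini-Hochberg over 5449 genes. The 9 genes of supply, uptake and control and the 5 of the bypassed route were named by hand. Members and lists were chosen with earlier results of these data known. Named are the members, both lists and the 3 genes most like each member, and other genes were named after their values were seen.

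Arrays were paired by the 3 experiment codes in the labels. Deviations from the time means correlated over genes with r from -0.05 to 0.63 within experiments. Alternatives were this replicate block, 2 scalings, a filter on the dimmest 25% of genes, trend and robust options, the mean over probe sets, leaving out each experiment, and leaving out the -10 min array of BY012 or, added after seeing the data, of BY003. The fit was tested on simulated data with independent noise on each array. Deviations shared within an experiment were not simulated, so the fit was not tested under them. Figures used matplotlib 3.10.9.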

Additional observations from a re-analysis of the deposited data

How the results depend on the processing

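Falls of UGA1, UGA2 and UGA4 at 24 min and from 7 to 24 min passed the test under every alternative in which the gene was fitted. The filter on dim genes left out UGA4. With experiment as a replicate block no call of the 4 genes changed, with 1 fall at 7 min and 3 at 24 min. Leaving out each experiment or 1 of the -10 min arrays of BY003 and BY012 gave 0 to 3 falls at 7 min, 0 to 1 rises at 24 min and 0 to 1 rises from 7 to 24 min. Over the same settings changes at 7 min ran from -1.09 to -0.32 for UGA1, -1.20 to -0.56 for UGA2, -1.80 to -0.32 for UGA4 and -0.17 to 0.032 for UGA3, whose rises ran from 0.55 to 0.76 at 24 min and from 0.55 to 0.87 from 7 to 24 min. Without the -10 min array of BY003, an alternative chosen after seeing the data, UGA1 (-1.04, adjusted p = 0.0112) and UGA4 (-1.55, adjusted p = 0.00336) were called at 7 min. UGA3 at 7 min changed sign to 0.10 with array medians subtracted, to 0.14 with quantile normalization to 0.01 without BY012 and to 0.032 without its -10 min array. DAL81 at 24 min was at -0.08 without BY003 and -0.11 without its -10 min array. It was at 0.31 with array medians subtracted and at 0.34 with quantile normalization. URE2 from 7 to 24 min ran from -0.027 without BY012 to 0.25 without BY008. Over all genes, leaving out BY003 gave 838 lower and 535 higher calls at 7 min, 305 and 83 from 7 to 24 min, and 2476 in the F test, against 1947, 910, 1099, 718 and 4001 with all arrays. The cause of these differences was not tested.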
